A study of Mus musculus with 6 samples.

Results

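The receptors for Wnt ligands were described gene by gene in the posterior midline of early somite-stage mouse embryos: 8 Frizzled genes (Fzd1, Fzd2, Fzd3, Fzd4, Fzd5, Fzd7, Fzd8 and Fzd10) and the co-receptor genes Lrp5 and Lrp6, 10 of the 18193 genes that the array annotation names singly. All probe sets annotated with one of these symbols were taken, whatever their values, which gave 25 of the 45037 probe sets tested. A probe set is a group of short oligonucleotides that reads 1 stretch of a transcript. Signals are in linear array units, and those of different probe sets are not set against each other as amounts of RNA. Each array carried amplified RNA of the dissected node and primitive streak region of 3 embryos at embryonic day 7.75 to 8, with 0 to 2 somites. Wild-type and Wnt3a null embryos were each represented by 3 such pools (9 embryos per genotype), all of mixed C57BL/6 and 129/Sv background. Wnt3a, a ligand made in this region, is the gene without function in the null embryos, and the comparison asks which transcripts depend on it. The labels do not describe the null allele or say whether control and null embryos were littermates.

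Frizzled proteins are serpentine membrane receptors that bind the lipid of a Wnt through a cysteine-rich outer domain. In signalling through beta-catenin the ligand brings a Frizzled together with Lrp5 or Lrp6, and the pair recruits Dishevelled and Axin to the membrane, which spares beta-catenin from breakdown so that it can act with Tcf and Lef factors on target genes. Frizzled proteins also signal without Lrp co-receptors, in planar cell polarity. The family falls into close relatives: Fzd1, Fzd2 and Fzd7; Fzd5 and Fzd8; Fzd4, Fzd9 and Fzd10; and Fzd3 and Fzd6. Mouse embryos that lack Lrp6 form a truncated posterior axis, as do embryos that lack Wnt3a.

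No probe set of a Frizzled or Lrp gene differed between the genotypes at an adjusted p under 0.05. This was 0 of 25 with limma, against 0 (0.00%) of all probe sets, and the smallest adjusted p was 0.772 among the members and 0.245 overall. At an unadjusted p under 0.05 there were 2 members with higher and 0 with lower signal in null pools, against 2.84% and 2.20% of all probe sets. In a paired fit, blocked on the replicate number and run under limma's trend and robust options, 22 of all probe sets (0.0488%) and 0 of the 25 passed, with a smallest member adjusted p of 0.186. By value, 17 members were higher and 8 lower in null pools, against 23293 higher and 21744 lower of all probe sets. The members' median log2 difference, null minus wild type, was 0.11 against 0.01 over all probe sets. Without wild-type pool 1 the count of members was 13 higher and 12 lower, with a median of 0.06. On log2(signal + 50) the members' median was 0.04. A p that misses the threshold does not show equal levels, so intervals are given below. In pools of dissected tissue, fewer cells of a type and less RNA per cell cannot be told apart.

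The arrays of both genotypes did not overlap for 3 of the 25 probe sets, the brightest ones of Fzd4, Fzd7 and Fzd8. All 3 were higher in null pools, against 5.57% of all probe sets, and 0 were lower, against 4.41%. In every pair of arrays with the same replicate number the null array was higher for 6 of the 25 and lower for 1, against 15.0% and 13.7% of all probe sets.

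RefSeq promoters (GRCm38.p6) were read for 5 of the 10 genes, namely Fzd1, Fzd4, Fzd5, Fzd7 and Fzd10. The search left out a chromosome by rule, and no promoter of Fzd8 was read. Each promoter runs from 250 bases before to 50 bases after the annotated start. Those of Fzd7 and Fzd4 are shown because their null and wild-type arrays did not overlap. That of Fzd1 is shown because it was the promoter among the 5 that held CTTTGA, a form of the core motif of Tcf and Lef factors. Other forms of this core were not searched, so a promoter without CTTTGA can still hold another form. They lie at chr1:59481897-59482196 (Fzd7, plus strand), chr7:89404116-89404415 (Fzd4, plus strand) and chr5:4758167-4758466 (Fzd1, minus strand). Capitals mark CTTTGA and the GC box GGGCGG, either of them on either strand, so that a match on the other strand reads TCAAAG or CCGCCC.
Fzd7: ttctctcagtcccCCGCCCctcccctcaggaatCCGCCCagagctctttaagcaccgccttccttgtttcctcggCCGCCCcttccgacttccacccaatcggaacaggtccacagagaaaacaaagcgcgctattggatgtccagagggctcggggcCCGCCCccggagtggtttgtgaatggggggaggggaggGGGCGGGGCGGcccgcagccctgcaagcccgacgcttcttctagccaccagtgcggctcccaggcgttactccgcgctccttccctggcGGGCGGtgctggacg
Fzd4: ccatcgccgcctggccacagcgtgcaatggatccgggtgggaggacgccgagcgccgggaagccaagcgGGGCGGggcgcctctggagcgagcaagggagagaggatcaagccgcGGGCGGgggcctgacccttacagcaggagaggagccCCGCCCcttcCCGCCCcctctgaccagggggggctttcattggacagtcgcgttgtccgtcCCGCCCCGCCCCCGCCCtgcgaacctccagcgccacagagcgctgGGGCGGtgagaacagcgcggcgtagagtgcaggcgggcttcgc
Fzd1: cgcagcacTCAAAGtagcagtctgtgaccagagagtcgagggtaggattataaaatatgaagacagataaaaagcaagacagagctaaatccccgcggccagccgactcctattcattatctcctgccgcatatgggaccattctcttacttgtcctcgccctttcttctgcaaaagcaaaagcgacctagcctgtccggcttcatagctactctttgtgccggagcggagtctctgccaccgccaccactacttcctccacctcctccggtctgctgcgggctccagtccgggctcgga

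The Fzd7 promoter held 7 GC boxes and the Fzd4 promoter 8, some of them overlapping, and neither held CTTTGA. The Fzd1 promoter held 0 GC boxes and 1 CTTTGA, on the opposite strand from the gene, with its first base at position -242 from the start. The Fzd5 promoter held 10 GC boxes and the Fzd10 promoter 1. Over 32851 promoters of this length, 16.0% held CTTTGA and 35.7% held GGGCGG. G and C made up 66.7% of the bases for Fzd7, 72.7% for Fzd4, 75.7% for Fzd5, 77.7% for Fzd10 and 54.0% for Fzd1. These matches describe the sequence and are no evidence of binding.

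Among the relatives Fzd1, Fzd2 and Fzd7, the null pools stood apart from wild type in Fzd7 alone by the criterion of arrays that do not overlap. Fzd7, a receptor known from epiblast and embryonic stem cells, gave signals of 1186, 1299 and 1218 in wild-type pools 1 to 3 and 2056, 1653 and 1864 in null pools 1 to 3. The lowest null array lay above the highest wild-type array, and the wild-type arrays were close to each other (1234 ± 58.0 against 1858 ± 202, SD, n = 3 each). The log2 difference was 0.59 ± 0.20 (SE), 1.50-fold higher, with a 95% interval from 0.09 to 1.08 (limma, unadjusted p = 0.0273, adjusted p = 0.955). Pairs 1 to 3 gave log2 differences of 0.79, 0.35 and 0.61. In the paired fit the unadjusted p of Fzd7 was 6.06e-04 and its adjusted p 0.186. The other Fzd7 probe set, annotated to the same transcript record, had signals of 3.06 to 33.7 in wild-type and 14.6 to 57.5 in null pools, so its arrays overlapped. Its pairs disagreed, with log2 differences of 4.00, -1.21 and 1.46.

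Fzd2, a receptor of both the beta-catenin and the polarity branch, was read by 3 probe sets with signals from 1996 to 3534 on all arrays. They are annotated to the same sequence record and are not independent. The brightest gave 2762, 3534 and 2549 in wild-type and 2640.4, 3115 and 2637 in null pools. Null arrays fell inside the wild-type range, with a log2 difference of -0.07 ± 0.23 (SE) with a 95% interval from -0.63 to 0.50. The other probe sets stood at 0.24 (95% interval -0.40 to 0.88) and 0.11 (-0.45 to 0.67), and their arrays overlapped as well. None of these intervals reaches a 2-fold change, which is a log2 difference of 1 or -1.

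Fzd1 had wild-type signals of 568, 389.9 and 599.9 and null signals of 637, 416 and 409 in its brightest probe set. The genotypes overlapped across nearly the whole range, at a log2 difference of -0.10 ± 0.30 (SE, 95% interval -0.85 to 0.65) and with 0.16, 0.09 and -0.55 in the pairs. A second, dim Fzd1 probe set (52.6 ± 33.9 in wild-type, 52.5 ± 15.0 in null pools, SD, n = 3 each) had a log2 difference of 0.16 (95% interval -1.20 to 1.52).

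**Figure D1:**
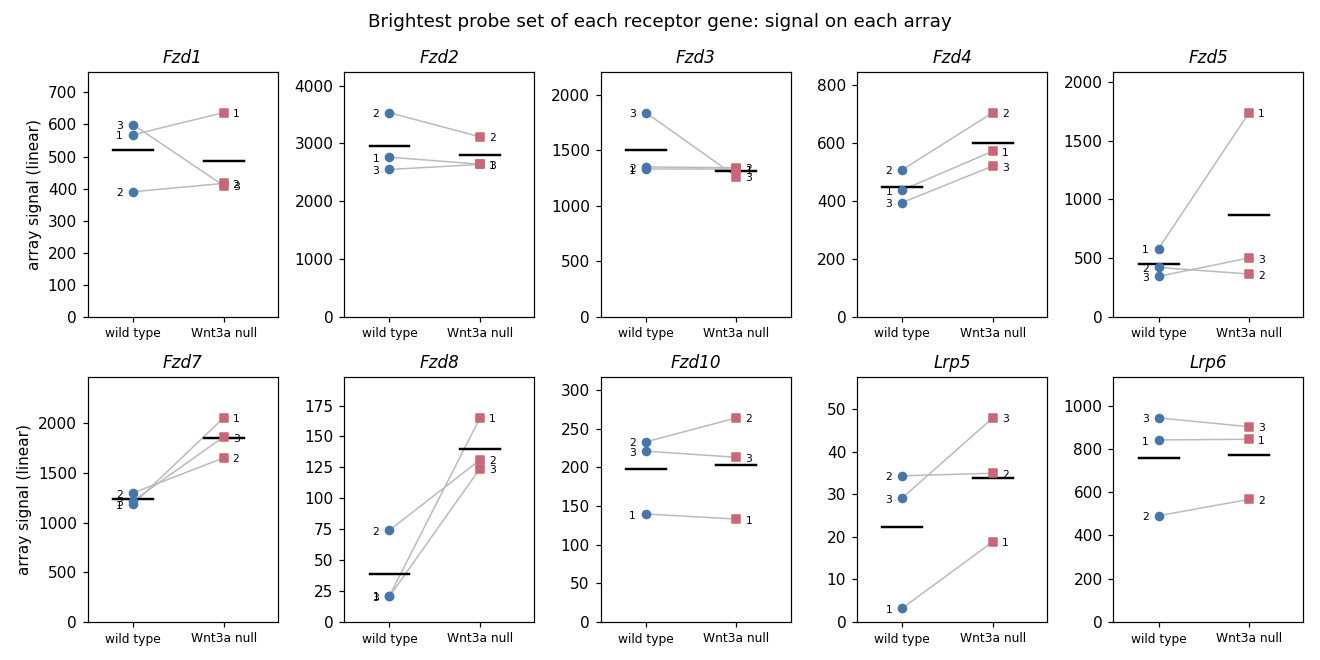
Array signal on a linear axis from 0 for the brightest probe set of each of the 10 genes, with wild-type pools as blue circles, Wnt3a null pools as red squares, replicate numbers beside the points, grey lines joining the same number and black bars at the group means (n = 3 each). Fzd4, Fzd7 and Fzd8 show all null arrays above all wild-type arrays, and in Fzd5 the null mean of 868 rests on null pool 1 at 1739.

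Fzd5 and Fzd8 are close relatives with known expression in anterior tissues and in endoderm of the early embryo. Fzd8 was dim, with 21.0, 74.1 and 20.5 in wild-type and 165, 131 and 124 in null pools in its brighter probe set. Every null array exceeded every wild-type array, while wild-type pool 2 stood well above the other two. On the log2 scale null pools were higher by 2.13 ± 0.56 (SE), 4.38-fold, with a 95% interval from 0.75 to 3.51 (limma, unadjusted p = 0.00983, adjusted p = 0.772). This was the largest log2 difference among the 25 probe sets. The pairs gave 2.97, 0.82 and 2.59. Since the mean log2 of this probe set (6.05) lay below the median of all probe sets (6.16), the size depends on how low signals are treated, and on log2(signal + 50) it was 1.15. The other Fzd8 probe set, at 4.42 to 28.6 on all arrays, overlapped between genotypes (log2 difference 0.39, 95% interval -1.32 to 2.10).

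Fzd5 gave 579, 419 and 343 in wild-type pools and 1739, 363 and 499.9 in null pools. Null pool 1 was the single high array, and the other null pools fell within the wild-type range. The log2 difference was 0.64 ± 0.64 (SE, 95% interval -0.94 to 2.22), and without null pool 1 it was -0.04. Its pairs gave 1.59, -0.21 and 0.54. The dimmer Fzd5 probe set was also highest in null pool 1, at 85.1, with 19.2 and 48.7 in the other null pools and 38.0 to 62.6 in wild-type pools. Its log2 difference was -0.13 (95% interval -1.59 to 1.32).

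Markers of anterior neural tissue were also higher in null pools by value. Otx2, a homeobox gene of forebrain, midbrain and anterior endoderm, had 129, 87.6 and 60.7 in wild-type and 1367, 216 and 468 in null pools. Hesx1, a homeobox gene of the anterior neural plate, had 50.4, 33.0 and 47.4 in wild-type and 178, 51.5 and 114 in null pools. In both genes null pool 1 was highest, null pool 3 next and null pool 2 lowest of the null pools, the order also seen in Fzd5. Fzd8 was highest in null pool 1 too, with pools 2 and 3 close to each other and pool 2 the higher. All 5 listed markers (Otx2, Six3, Hesx1, Lhx2 and Rax) were higher in null pools by value, against 23293 of all 45037 probe sets. Of these markers 2 were without overlap, against 5.57% of all probe sets, and 0 passed limma's test without the block. In the paired fit 1 passed, Otx2 (adjusted p = 0.0373). The summed signal of the 5 was 224 to 316 in wild-type and 462 to 1762 in null pools, and Otx2 alone gave 1367 of the 1762 in null pool 1. Six3 (63.1 to 93.1 in wild-type, 85.5 to 119 in null pools), Lhx2 and Rax overlapped. The order of the null pools was not shared by all the listed markers. Rax had that of Otx2 and Hesx1 (46.1, 24.6 and 30.8 in null pools 1 to 3). Six3 fell from pool 1 to pool 3 (119, 92.6 and 85.5), and Lhx2 was highest in null pool 2 (51.1, 77.5 and 27.5). Of 4 definitive endoderm markers 3 were also highest in null pool 1. These were Cer1 (1162, against 156 to 748 on the other arrays), Trh (1174, at most 973 elsewhere) and Cldn6 (2991, at most 2219 elsewhere). Sox17 was lower in every null pool than in any wild-type pool (2596 to 3085 against 3188 to 3434). The 5 listed markers of visceral and yolk sac endoderm (Afp, Ttr, Apoa1, Apob and Rbp4) were all highest in wild-type pool 2. In each of them null pool 1 was the lowest null pool, and their summed signal overlapped (27477 to 63032 in wild-type, 32146 to 48599 in null pools). The part of these tissues in the Fzd5 and Fzd8 values was not tested.

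**Figure D2:**
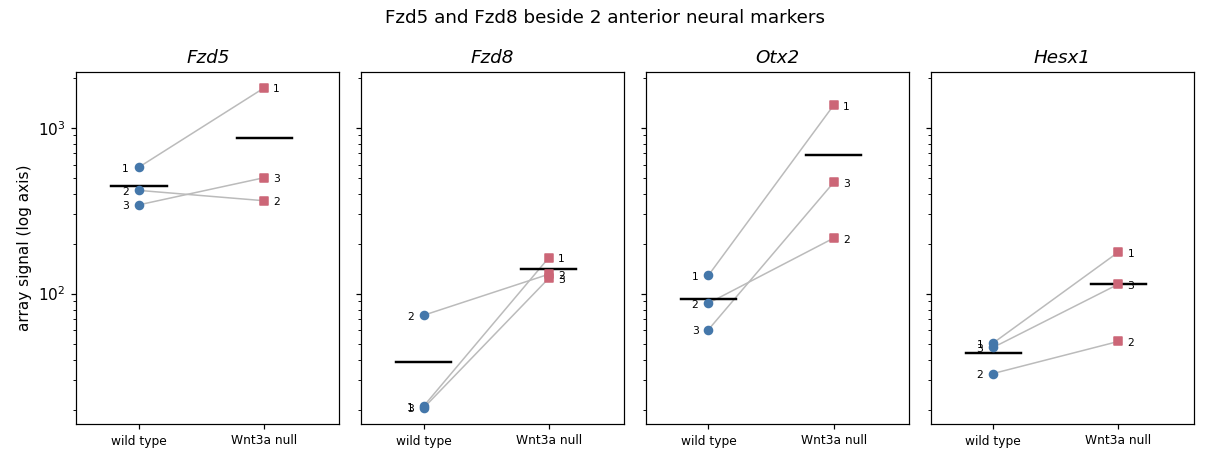
Array signal on a log axis for Fzd5, Fzd8 and the anterior neural markers Otx2 and Hesx1, with wild-type pools as blue circles, Wnt3a null pools as red squares, replicate numbers beside the points, grey lines joining the same number and black bars at the arithmetic group means (n = 3 each). Null pool 1 is the highest array in all 4 genes, at 1739 in Fzd5 and 1367 in Otx2.

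Fzd4, known as a receptor of the vascular endothelium that also binds the ligand Norrin, gave 436, 506 and 393 in wild-type and 570.3, 703 and 519 in null pools in its brightest probe set. All null arrays were above all wild-type arrays, although the gap between null pool 3 and wild-type pool 2 was small. Null minus wild type was 0.42 ± 0.23 (SE) on the log2 scale, 1.34-fold, with a 95% interval from -0.15 to 0.99 (limma, adjusted p = 1.00). The 3 pairs were close to each other, at 0.39, 0.47 and 0.40. A second bright probe set of Fzd4, with 219, 426 and 310.4 in wild-type and 302, 322 and 376 in null pools, overlapped fully and had a log2 difference of 0.11 (95% interval -0.65 to 0.87). The third, annotated to the same record as the first, was at 1.68 to 30.2 on all arrays and carried no usable direction (95% interval -2.64 to 3.63). Among blood and endothelial markers, Kdr, a receptor of endothelial progenitors, had 355, 527 and 464 in wild-type and 572, 623 and 663 in null pools, again without overlap. All 6 listed markers were higher in null pools by value, 0 passed limma's test, and their summed signal overlapped (544 to 1200.2 in wild-type, 981 to 1302 in null pools). Cdh5 and Pecam1, which mark formed endothelium, stood at 24.9 to 116 and 3.45 to 12.7 in wild-type pools and at 43.0 to 266 and 8.27 to 51.7 in null pools. Their part in the Fzd4 values was not tested.

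Fzd10, known from the primitive streak and the dorsal neural tube, showed no separation. Its brighter probe set gave 139.6, 233 and 221 in wild-type and 133, 264 and 213 in null pools. The arrays lined up by replicate number rather than genotype, with pool 1 lowest in both, and the pairs differed by -0.07, 0.18 and -0.05 on the log2 scale. The log2 difference was 0.02 ± 0.36 (SE, 95% interval -0.88 to 0.92). The second Fzd10 probe set was near the lower end of the scale, at 24.3, 23.2 and 2.89 in wild-type and 4.72, 3.75 and 4.76 in null pools. Wild-type pool 3 overlapped the null arrays, and the log2 difference of -1.42 had a 95% interval from -3.61 to 0.76. The summed signal of 5 listed markers of the primitive streak was 3223 to 5675 in wild-type and 2197 to 2392 in null pools, a difference that was not tested. Of these markers 4 were lower in null pools by value, 2 of them without overlap, against 4.41% of all probe sets. By limma's test or the paired fit 0 passed. Fgf4, which encodes a growth factor, was lower in every null pool (706 to 889 against 987 to 1527).

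Fzd3, a receptor of the polarity branch in neural tissue, was covered by 6 probe sets. The brightest gave 1332, 1350.3 and 1840.3 in wild-type and 1331, 1343 and 1262 in null pools. The first and second pairs were nearly equal, and wild-type pool 3 made the difference (log2 0.00, -0.01 and -0.54). The log2 difference was -0.18 ± 0.22 (SE, 95% interval -0.74 to 0.37), and without wild-type pool 3 it was -0.03. The next brightest, which by its name suffix can read more than 1 transcript, had 573, 510.4 and 792 in wild-type and 436, 607 and 430.2 in null pools (log2 difference -0.34, 95% interval -1.03 to 0.35). The other 4 had log2 differences of -0.02, 0.14, 0.95 and -0.49, and the intervals of all 6 included 0. Those 2 with the larger values were also those below the median signal, at 6.75 to 67.7 and 7.89 to 58.4 on all arrays.

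Lrp6, the co-receptor whose loss truncates the posterior axis, gave 842, 491 and 944 in wild-type and 845, 567 and 903 in null pools. As in Fzd10 the replicate numbers lined up, with pool 2 lowest in both genotypes, and the pairs differed by 0.01, 0.21 and -0.06 on the log2 scale. The log2 difference was 0.05 ± 0.35 (SE, 95% interval -0.82 to 0.92). The second Lrp6 probe set gave 73.5, 233 and 139.6 in wild-type and 78.6, 202 and 174 in null pools. Here pool 2 was highest in both genotypes, unlike in the brighter probe set. Its log2 difference was 0.07 (95% interval -1.35 to 1.49). Lrp5, its relative known for a role in bone mass, was read by 1 dim probe set with 3.19, 34.3 and 29.1 in wild-type and 18.8, 34.9 and 47.9 in null pools. Wild-type pool 1 was the low array. The log2 difference of 1.10 had a 95% interval from -1.40 to 3.60, without wild-type pool 1 it was 0.00, and on log2(signal + 50) it was 0.23.

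**Figure D3:**
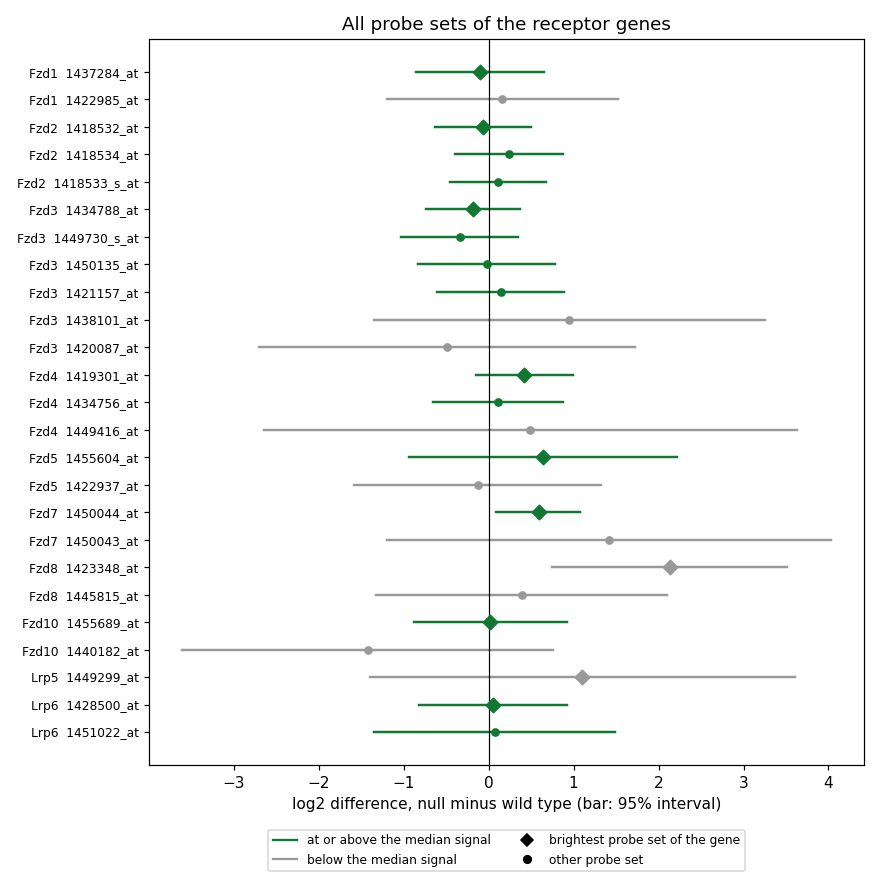
Log2 difference, null minus wild type, with its 95% interval from limma for all 25 probe sets, in green for those at or above the median signal of all probe sets and in grey for those below, with diamonds for the brightest probe set of each gene. The intervals of the brightest Fzd7 (0.09 to 1.08) and Fzd8 (0.75 to 3.51) probe sets lie above 0 before adjustment over all probe sets, and the other 23 include 0.

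Dimmer receptor probe sets mostly had larger standard errors. The 15 probe sets at or above the median signal had standard errors of 0.20 to 0.64 on the log2 scale (median 0.30), and the 10 below it 0.55 to 1.26 (median 0.88). Over all probe sets the median was 0.39. Log2 differences spread accordingly, from -0.34 to 0.64 in the brighter members and from -1.42 to 2.13 in the dimmer ones. Among the brighter members Fzd5 had the largest standard error, 0.64 at a mean log2 of 9.09, where probe sets with a mean log2 between 9 and 10 had a median of 0.24 and a 90th percentile of 0.36. The second Lrp6 probe set also lay above the 90th percentile of its range, with 0.57 at a mean log2 of 7.10 against 0.45 for probe sets between 7 and 8.

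**Figure D4:**
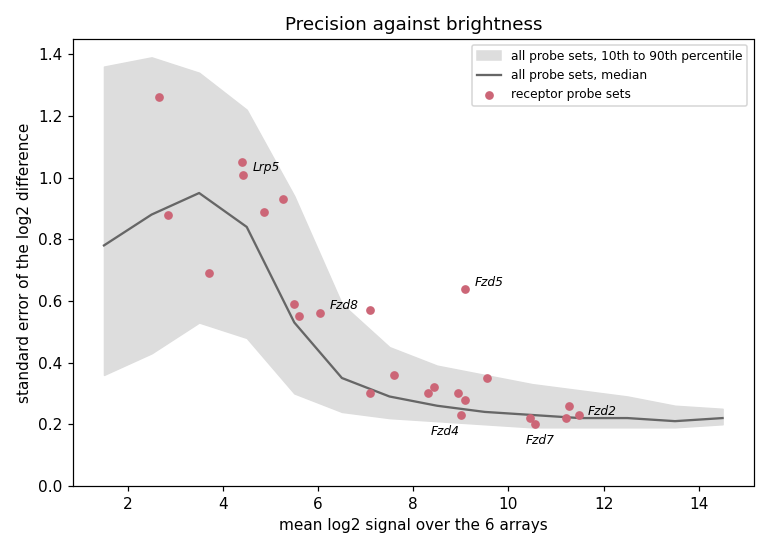
Standard error of the log2 difference against the mean log2 signal over the 6 arrays, with the 25 receptor probe sets as red points, the median of all probe sets in bins of 1 log2 unit as a line and the 10th to 90th percentile as a grey band. The errors of most bright members lie near 0.2 to 0.4, dim members reach 1.26, and Fzd5 at 0.64 and the second Lrp6 probe set at 0.57 stand above the band.

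Receptors outside the 10 and other receptor-level genes, such as glypicans and ubiquitin ligases, were counted by their brightest probe set from a fixed list. Of 14 measured genes 0 passed limma's test in either direction, 4 were higher and 10 lower by value, and the median log2 difference was -0.06. Fzd6, the relative of Fzd3, had a log2 difference of 0.20 (95% interval -0.32 to 0.73). The dim Fzd9, a relative of Fzd4 and Fzd10, stood at -1.45 (95% interval -3.40 to 0.50), and its arrays overlapped. Ptk7, a polarity co-receptor, had 560.4, 186 and 200.1 in wild-type and 78.8, 86.4 and 122 in null pools, with wild-type pool 1 far above the others, and stood at -1.55 on the log2 scale (limma, adjusted p = 0.923). Ror2, a receptor tyrosine kinase that binds Wnt5a, had 2942, 2950.3 and 2819 in wild-type and 1833, 2462 and 2072 in null pools. Its null arrays were all below the wild-type arrays, at a log2 difference of -0.46 ± 0.21 (SE, adjusted p = 1.00). Ror1 went the other way, also without overlap, at a log2 difference of 0.73 (95% interval -0.19 to 1.65). Rnf43, a ubiquitin ligase that removes Frizzled proteins from the membrane, was dim, at 9.19 to 59.4 in wild-type and 5.94 to 19.9 in null pools.

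Of 17 genes that carry the signal inside the cell 0 passed, 6 were higher and 11 lower by value, with a median of -0.05. The lowest p values were those of the dim Dvl3 (9.57 to 16.6 in wild-type, 3.61 to 5.75 in null pools), a Dishevelled gene, and of the casein kinase genes Csnk1g1 (log2 difference -0.49) and Csnk1e (-0.35). Casein kinases of the gamma class phosphorylate the tail of Lrp6. Csnk1g1 gave 1679, 1203 and 1780.0 in wild-type and 1155, 1044 and 1081 in null pools, without overlap (adjusted p = 1.00). Of 7 planar polarity genes 0 passed, 2 were higher and 5 lower by value, with Prickle2 at -0.78, Celsr1 at -0.44 and Celsr2 at 0.40. Of 10 other genes of the wider Lrp family 0 passed, 9 were higher and 1 lower by value, with a median of 0.23. Lrp3 had a log2 difference of 1.44, Lrp12 of 0.55 and Lrp8, a reelin receptor, of -0.67.

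Known targets of the pathway were read on the same arrays for reference. Axin2, a feedback inhibitor, had log2 -1.05, the caudal gene Cdx1 -1.26 and the zinc finger gene Sp5 -1.69. In limma without the block their adjusted p values were 0.425, 0.344 and 0.470, and in the paired fit all 3 passed (adjusted p = 0.00827, 0.00349 and 0.0270). The Wnt3a probe set itself had a log2 difference of -0.10 (95% interval -0.65 to 0.45), and it does not check the labels, since the labels do not describe the allele.

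Over the 6 arrays the patterns most like that of Fzd8, the member with the smallest p in its brightest probe set, were read by probe sets of Hmgb2, Lipg, Ppp4r1l-ps, Gnai3 and Itpr3. Their Pearson r with Fzd8 was 0.990, 0.988, 0.986, 0.982 and 0.981, the highest among 19340 probe sets above the median signal. These are descriptions over 6 arrays of the same pools, and the highest of so many values are large by selection. Their log2 differences were smaller than that of Fzd8, at 0.21 for Hmgb2 and 0.69 for Itpr3.

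Across the series, median signals per array ran from 73.6 to 86.1. The ratio of the 3' to the 5' Gapdh control signal can reflect RNA integrity or the amplification of the RNA. It separated the genotypes, at 2.51 to 3.00 in wild-type and 2.09 to 2.39 in null pools, whereas that of beta-actin overlapped. Wild-type pool 1 had almost no signal of the Y-linked gene Eif2s3y (4.31, against 1053 to 1788 on the other arrays), so it differed in the sexes of its embryos. Listed heart markers summed to 1056 to 1502 in wild-type and 2339 to 3007 in null pools, with 4 of 5 higher in null pools by value. Tbx20 (486 to 777 against 1169.5 to 1658) and Isl1 were without overlap, and Tbx20 passed the paired fit (limma, adjusted p = 0.0313). Myl7 and Tnnt2 were higher by value but overlapped. The dim Nkx2-5 was lower by value, with 69.3, 67.0 and 38.2 in wild-type and 50.9, 40.8 and 34.9 in null pools. Its arrays overlapped, at a log2 difference of -0.43, and its pairs gave -0.45, -0.72 and -0.13. The 5 paraxial mesoderm markers summed to 6067 to 7454 in wild-type and 4562 to 5837 in null pools. Of these 3 were lower by value, with Tbx6 (1069 to 1120.2 against 612 to 704) and Dll1 without overlap, and Dll1 passed the paired fit (limma, adjusted p = 0.0460), while Tcf15 was higher without overlap (522 to 573 against 246 to 469). Without wild-type pool 1 the log2 difference was 0.56 for Fzd7, 1.83 for Fzd8 and 0.41 for Fzd4. The part of RNA integrity, of amplification and of heart or paraxial tissue in these values was not tested.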

How the data were processed

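Per the labels' protocols, RNA of single embryos (30 to 50 ng) was amplified, amplified RNA of 3 embryos was pooled (600 ng) for a second cycle, and each pool went to 1 Affymetrix Mouse Genome 430 2.0 array. The submitters' processing notes name RMA, with no version. The deposited intensity values are linear, with a mean of 500 on each array after trimming 2% at each end, which is not the form of RMA output, and their origin was not stated in the labels.

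The values were turned to log2 with no added constant, and 64 control probe sets were left out. Genotypes were compared in R 4.3.3 with limma 3.58.1 (lmFit, eBayes), two-sided, by probe set, with Benjamini-Hochberg adjustment over all 45037 probe sets and a threshold of 0.05. Intervals are 95% intervals of this fit. Symbols come from the platform annotation (34945 probe sets with 1 symbol, 932 with several, 9160 not listed). All 10 genes matched RefSeq symbols. A gene's brightest probe set has the highest mean log2 over the 6 arrays. Named genes were all members, the 3 genes of each context list with the smallest p, and the 5 genes most like the member with the smallest p. Fzd6 and Fzd9, relatives of members, Ror1 and the markers named singly were chosen after their values were seen. Not listed were Kremen2 and Mesdc2 (receptor-level genes) and Noto (node).

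Members, lists and tests were chosen with earlier results of these data known. The labels call the pools biological replicates 1 to 3 and do not say what a number shares. Deviations from the genotype means correlated within a number at 0.331, 0.343 and 0.210 over the 22519 probe sets at or above the median signal (0.0537, 0.0524 and 0.0338 over all). With a bound of 0.1 on the brighter ones, arrays of one number were treated as pairs in the paired fit only. The choice of the brighter probe sets for this check followed earlier results. Standard errors and intervals given by gene come from the fit without the block and leave the pairing out. In the paired fit the standard error was 0.14 against 0.35 for the brightest Lrp6 probe set and 0.23 against 0.36 for that of Fzd10. For some dim probe sets it was larger, such as 1.02 against 0.69 for the second Fzd8 probe set. The alternatives tried were the replicate block, eBayes options, a filter at the median signal, an added constant of 50, median centring, cyclic loess, array weights, 1 or averaged probe sets per gene, a threshold of 0.1 and leaving out each array. The paired fit over 1 probe set per gene was added after seeing the data.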

Additional observations from a re-analysis of the deposited data

How the results depend on the processing

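The count of Frizzled and Lrp probe sets called was 0 under every alternative run, those that leave out an array included. The count over all probe sets was 22 in the paired fit (replicate block, trend, robust), 1 with trend and robust options alone, 11 of 18193 genes in the paired fit on 1 probe set per gene, and 0 otherwise. The replicate block by itself changed no call (0 of 45037, smallest adjusted p = 0.778, limma). The brightest probe sets of Fzd1, Fzd2, Fzd3, Fzd4, Fzd5, Fzd7, Fzd8 and Lrp5 kept the sign of their log2 difference under all alternatives on single probe sets other than leaving out an array. Averaging a gene's probe sets on the log2 scale, dim ones included, gave 0.03 for Fzd1, 0.09 for Fzd2, 0.01 for Fzd3 and -0.70 for Fzd10, each opposite in sign to the brightest probe set, and 0.25 for Fzd5. Fzd10 also turned to -0.03 with median centring and -0.04 with cyclic loess, and Lrp6 turned below 0 with median centring (0.00 after rounding). Fzd7 ranged from 0.53 to 1.00 (adjusted p 0.130 to 1.00) and Fzd8 from 1.15 to 2.22 (0.215 to 0.999), and Lrp5 was 0.23 on log2(signal + 50). The filter at the median signal removed Fzd8 and Lrp5. The members' median log2 difference was 0.06 with median centring (15 higher, 10 lower) and 0.04 with log2(signal + 50), and 0.06 to 0.17 leaving out 1 array in turn.

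Leaving out 1 array in turn gave -0.31 to 0.02 for Fzd1, -0.16 to 0.07 for Fzd2, -0.27 to -0.03 for Fzd3, 0.30 to 0.52 for Fzd4, -0.04 to 1.09 for Fzd5, 0.51 to 0.67 for Fzd7, 1.82 to 2.74 for Fzd8, -0.21 to 0.30 for Fzd10, 0.00 to 1.71 for Lrp5 and -0.24 to 0.26 for Lrp6. Fzd4, Fzd7 and Fzd8 were the members without overlap under median centring and cyclic loess as well. Signal near the lower end of the scale limits Fzd8, Lrp5 and the dim second probe sets, and 3 arrays per genotype limit all of them.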
